A study of Mus musculus with 12 samples.

Results

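The major urinary protein (Mup) genes of the mouse are described here in the livers of female mice, with and without ovaries and with and without a glucocorticoid. The 10 genes were taken by symbol from the expression table: Mup1, Mup2, Mup3, Mup8, Mup9, Mup12, Mup13, Mup15, Mup19 and Mup20. They are 10 of the 20 Mup symbols and of the 24033 gene symbols in that table. They were chosen by their levels in these same libraries. Which comparison served for that is not stated, so every comparison is treated as used, and their levels and fold changes are given as a description. Counts of members past the threshold of a fit over all genes are printed beside the share of all genes past it, and nothing is read from them as a test of the members. The 12 libraries hold liver RNA of wild-type C57BL/6 female mice in 4 groups of 3: ovariectomized females given dexamethasone, ovariectomized females given vehicle, intact females given dexamethasone and intact females given vehicle. Dexamethasone, a synthetic glucocorticoid, was given at 1 mg/kg, the vehicle was PBS, and livers were taken 6 h later. The labels give no age, cycle stage or time since surgery. The labels do not say that the 3 libraries of a group are separate animals, so the spread between them may be partly technical.

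Major urinary proteins are small secreted carriers of the lipocalin family. The mouse liver makes them, the kidney passes them into the urine, and there they bind and slowly release volatile pheromones. Males make far more of them than females, and pulsed growth hormone acting through STAT5, androgens, thyroid hormone and glucocorticoids are all known to raise their transcripts. Mup20 encodes darcin, a male pheromone in its own right, and circulating MUP1 has been tied to glucose metabolism in mice. The genes lie side by side in 1 cluster on chromosome 4. The copies in the middle of the cluster are nearly identical, while Mup3, Mup20 and Mup21 stand near one end and have diverged more.

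The start regions of 4 members are printed to show how alike the copies are. Mup2, Mup19 and Mup9 are close copies, and Mup3 is a diverged one. The sequences are from RefSeq on build GRCm38.p6, 250 bases before and 50 after each annotated start, all on the minus strand of chromosome 4. Capitals mark 3 short motifs: ATCAAT, the core bound by Onecut factors, TATAA, the core of a TATA box, and, in Mup3, AGAACA read on the other strand as TGTTCT, a partial site of the glucocorticoid receptor.
Mup2, chr4:60139807-60140106: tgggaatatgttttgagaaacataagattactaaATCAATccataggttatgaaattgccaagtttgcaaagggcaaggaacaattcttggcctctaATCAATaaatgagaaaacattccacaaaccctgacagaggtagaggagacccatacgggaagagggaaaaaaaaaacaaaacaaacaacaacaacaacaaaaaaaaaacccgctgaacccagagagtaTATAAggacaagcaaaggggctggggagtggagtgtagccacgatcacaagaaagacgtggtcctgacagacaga
Mup19, chr4:61782175-61782474: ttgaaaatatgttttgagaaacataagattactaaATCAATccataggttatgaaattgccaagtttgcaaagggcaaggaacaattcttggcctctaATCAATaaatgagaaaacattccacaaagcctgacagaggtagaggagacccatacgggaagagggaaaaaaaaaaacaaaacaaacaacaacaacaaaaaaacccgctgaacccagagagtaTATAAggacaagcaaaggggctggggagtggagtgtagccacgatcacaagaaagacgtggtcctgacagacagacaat
Mup9, chr4:60421903-60422202: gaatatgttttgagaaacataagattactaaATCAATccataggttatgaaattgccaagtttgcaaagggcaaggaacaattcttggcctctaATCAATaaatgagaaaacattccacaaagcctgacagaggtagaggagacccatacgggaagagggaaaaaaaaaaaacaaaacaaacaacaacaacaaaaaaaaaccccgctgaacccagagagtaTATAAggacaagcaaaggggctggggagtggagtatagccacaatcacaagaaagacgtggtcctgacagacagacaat
Mup3, chr4:62087268-62087567: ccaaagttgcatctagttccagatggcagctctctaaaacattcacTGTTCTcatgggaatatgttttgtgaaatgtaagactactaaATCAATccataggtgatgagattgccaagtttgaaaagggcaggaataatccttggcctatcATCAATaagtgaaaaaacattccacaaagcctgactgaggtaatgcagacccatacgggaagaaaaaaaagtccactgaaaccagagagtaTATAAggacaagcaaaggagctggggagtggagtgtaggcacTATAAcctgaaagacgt
RefSeq start regions were matched for 5 of the 10 members, and for 14 Mup genes in all. Aligned to Mup2, the region of Mup19 was 99.0% identical and that of Mup9 98.6%, each over 294 aligned bases, and that of Mup3 was 88.6% identical over 246. Read on both strands, ATCAAT stood in 14 of the 14 Mup regions, against 7.54% of 32851 regions of all genes. TATAA stood in 13 of 14, against 24.9%. AGAACA stood in 2 of 14, Mup3 and Mup21, against 19.0%. AGGTCA, a partial site of the oestrogen receptor, stood in 1 of 14, Mup4, against 16.3%, and TTCNNNGAA, the STAT5 palindrome, in 0 of 14, against 8.3%. None of these motifs overlaps another in its letters in the 4 regions printed. Relative to the annotated start, TATAA began at base -25 in Mup2 and at -29 in Mup19 and Mup9. In Mup3 it began at -9 and again at 34, which lies after the start. The 14 regions are copies of each other, not independent cases, and a letter match is a description, not a binding site.

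Most members' transcripts also share much of their sequence, which bears on every value below. Among the GRCm38 transcripts, 909 to 986 bases long for the members, the median member shared 92.5% of its 50-base words with another gene, and 8 of 10 members shared over 80%. Mup2, Mup15 and Mup19 had 0 words of that length of their own. Mup3 shared 15.6% and Mup20 shared 50.5%, so these 2 are the members most separable by sequence. The sources used here do not say how the authors' counting treated reads that match several copies. Values of the other 8 are therefore uncertain as measurements of single genes, and they may share reads.

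Levels are the authors' deposited log2 values. With log2 of the transcript length in kilobases subtracted, Mup3 was the highest member, at a mean of 15.23 over the 12 libraries. Mup20 followed at 9.87, then Mup1 at 8.84, Mup2 at 8.83, Mup13 at 8.50, Mup19 at 8.40, Mup8 at 8.15, Mup15 at 7.90, Mup12 at 7.76 and Mup9 at 7.48. From Mup1 down, this order is not that of every group. Mup1 stood above Mup2 in intact vehicle livers, at 8.22 against 7.19. In ovariectomized vehicle livers it stood under Mup2, at 9.24 against 9.95. Some pairs kept their order, as Mup2 stood above Mup13 in the mean of each group. Among Mup genes outside the 10, Mup10 was the highest on this per-length scale, at 14.20. Every level and difference from here on is on the deposited log2 scale, without the length term.

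**Figure D1:**
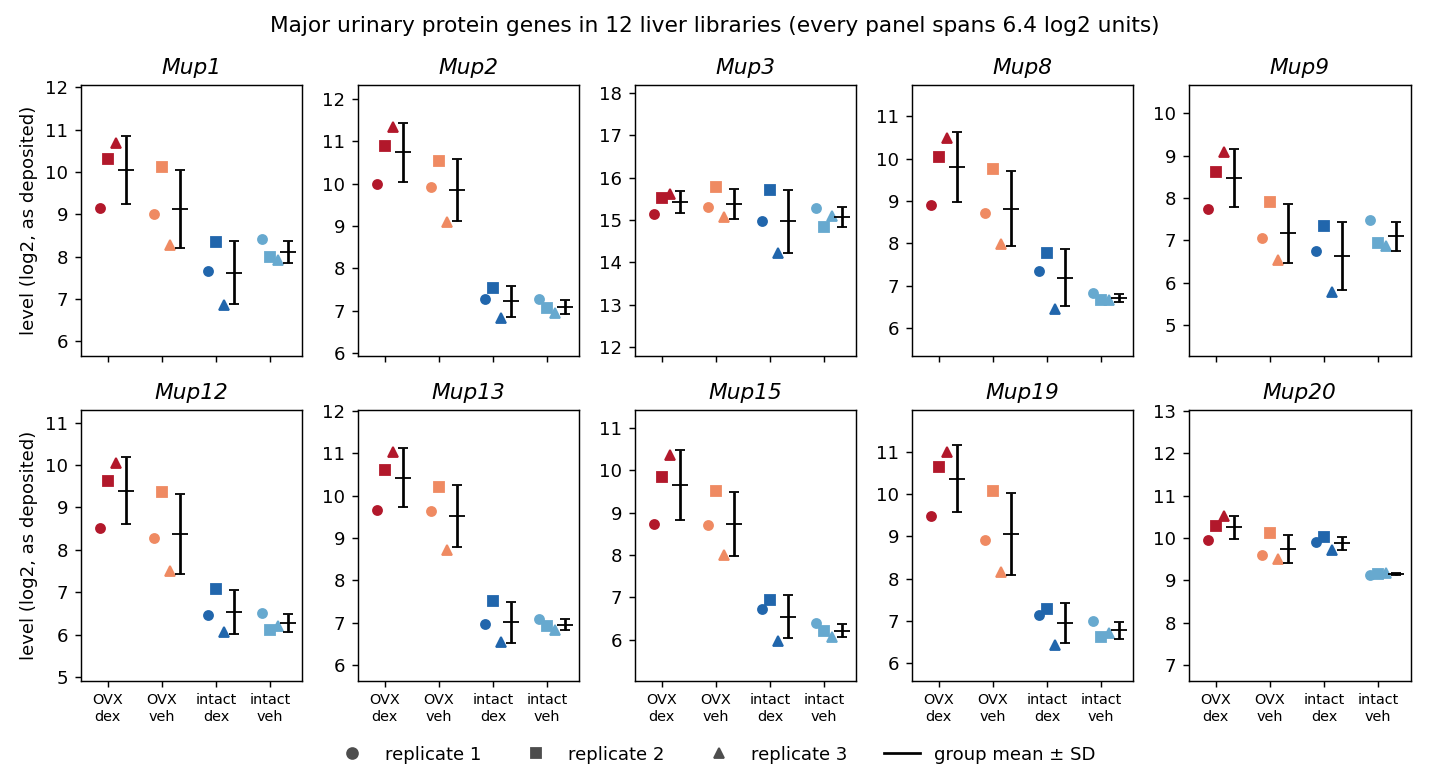
Deposited log2 level (y axis) of the 10 Mup genes in the 12 livers, grouped along the x axis as ovariectomized (OVX) with dexamethasone (dex), OVX with vehicle (veh), intact with dex and intact with veh. Each symbol is 1 library, bars are the group mean ± SD (n = 3), and each panel spans the same number of log2 units. For Mup2, Mup8, Mup12, Mup13, Mup15 and Mup19 the OVX libraries all lie above the intact ones, while Mup3 stays between 14.21 and 15.77 in every library.

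Without dexamethasone, 6 members were about 4-fold to 7-fold higher in ovariectomized than in intact livers. Mup2 was at 9.92, 10.53 and 9.09 in ovariectomized livers given vehicle, against 7.27, 7.05 and 6.93 in intact livers given vehicle. All 3 ovariectomized libraries lay above all 3 intact ones. The difference was a log2 fold change of 2.76 ± 0.37 (SE from limma, n = 3 per group, as throughout), or 6.78-fold. Mup13 differed by 2.57 ± 0.39, Mup15 by 2.52 ± 0.42, Mup19 by 2.26 ± 0.46, Mup12 by 2.11 ± 0.46 and Mup8 by 2.10 ± 0.47, and none of these 5 overlapped between the groups. Mup19 had the widest spread of them, at 8.91, 10.08 and 8.15 in ovariectomized livers, against 7.01, 6.62 and 6.73 in intact livers.

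Mup20, the darcin gene, also lay higher in all 3 ovariectomized livers given vehicle, by a smaller amount. It was at 9.61, 10.13 and 9.496 in ovariectomized livers, against 9.13, 9.15 and 9.18 in intact livers, a difference of 0.59 ± 0.16. The other 3 members overlapped between the groups. Mup1 was at 9.01, 10.11 and 8.28 in ovariectomized livers, against 8.41, 8.004 and 7.93 in intact livers (1.02 ± 0.49). Mup9 averaged 7.17 ± 0.69 in ovariectomized livers and 7.09 ± 0.33 in intact livers (SD, n = 3 each). Mup3 was at 15.30, 15.77 and 15.06 in ovariectomized livers, against 15.29, 14.82 and 15.10 in intact livers (0.31 ± 0.31). In the fit over all genes, 7 of the 10 members passed a Benjamini-Hochberg adjusted p under 0.05, all higher, where 12.4% of the 12965 genes tested passed as higher and 27.9% in either direction. The same 7 were the members with no overlap, beside 20.7% of all genes. Mup20 did not pass without replicate 1 of the intact vehicle livers or without replicate 2 of the ovariectomized vehicle livers. The choice of the members may have used these values, so nothing is read from that count, nor from the same counts below.

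Under dexamethasone 8 members lay higher in every ovariectomized than in every intact liver: Mup2, Mup8, Mup12, Mup13, Mup15, Mup19, Mup1 and Mup9. Mup20, which had lain apart with vehicle, overlapped here. Mup2 was at 9.98, 10.90 and 11.33 in ovariectomized livers given dexamethasone, against 7.27, 7.54 and 6.83 in intact livers given dexamethasone. That is a log2 fold change of 3.52 ± 0.37, or 11.5-fold. Mup13 differed by 3.42 ± 0.39, Mup19 by 3.41 ± 0.46, Mup15 by 3.10 ± 0.42, Mup12 by 2.86 ± 0.46 and Mup8 by 2.62 ± 0.47. Mup1 was at 9.16, 10.31 and 10.70 in ovariectomized livers, against 7.66, 8.34 and 6.86 in intact livers (2.43 ± 0.49). Mup9 was at 7.74, 8.62 and 9.09 in ovariectomized livers, against 6.76, 7.35 and 5.77 in intact livers (1.86 ± 0.44). Both stood lower in replicate 3 of the intact livers than in the other two.

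Ordered by log2 fold change, ranks 1 to 7 of the 12965 genes in this comparison were held by Mup2, Mup13, Mup19, Mup15, Mup12, Mup8 and Mup1. Mup9 held rank 9. In vehicle livers Mup2 held rank 3, Mup13 rank 4, Mup15 rank 5, Mup19 rank 7, Mup12 rank 9 and Mup8 rank 10. The choice of the members may have used these values, and near-identical copies may share reads. The ranks are therefore descriptions, and nothing is read from them. Mup3 and Mup20 overlapped between ovariectomized and intact livers given dexamethasone. Mup3 was at 15.14, 15.52 and 15.62 in ovariectomized livers, against 14.97, 15.71 and 14.21 in intact livers (0.46 ± 0.31). Mup20 was at 9.96, 10.29 and 10.51 in ovariectomized livers, against 9.90, 10.02 and 9.71 in intact livers (0.38 ± 0.16). In the fit, 8 of 10 members passed as higher, beside 7.74% of all genes as higher and 12.8% in either direction. The same 8 had no overlap, beside 19.5% of all genes. Without replicate 3 of the ovariectomized dexamethasone livers, 5 of 10 passed, and over all genes 207 passed in place of 1662. Mup1, Mup8 and Mup9 were the members lost there. Mup1 was also lost without replicate 1 of the intact dexamethasone livers, and Mup9 passed in 2 of the 6 fits that left out a library.

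**Figure D2:**
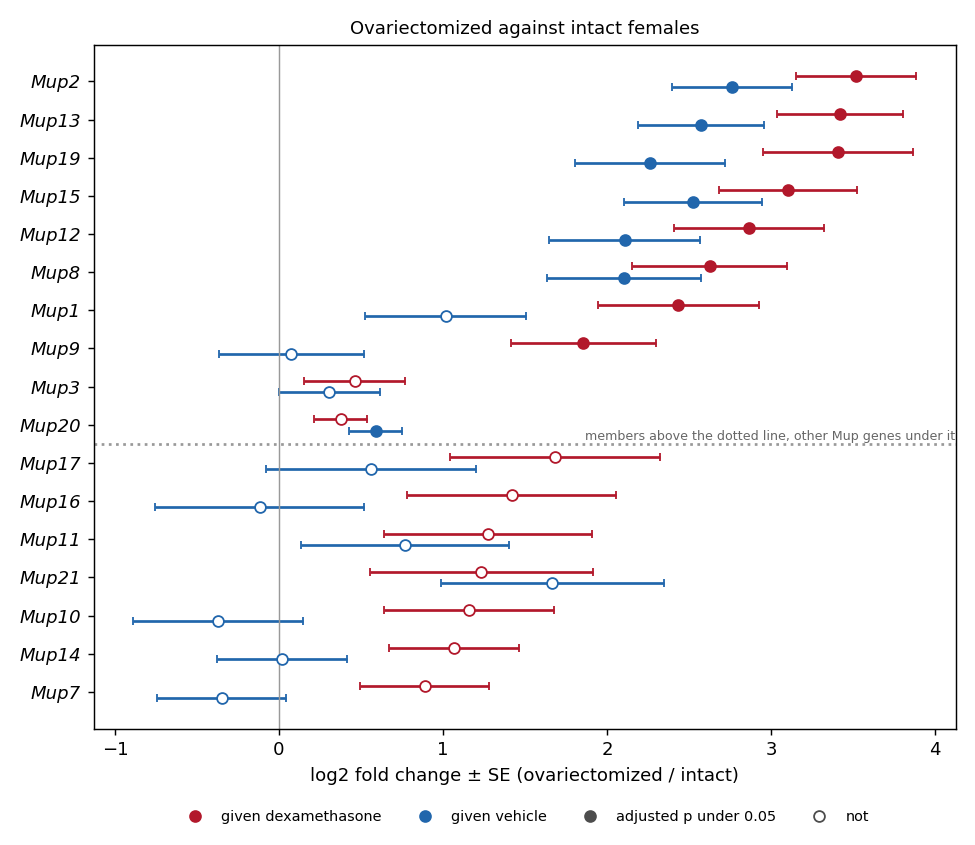
Log2 fold change ± SE (x axis, ovariectomized over intact) of the 10 members, above the dotted line, and of 7 other Mup genes under it, in livers given dexamethasone (red) and vehicle (blue), n = 3 per group. Filled points passed an adjusted p under 0.05 in limma over 12965 genes. Mup2 is at 3.52 and 2.76, and Mup3 at 0.46 and 0.31.

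Dexamethasone was followed by a moderate rise of Mup20 in intact livers, without overlap. In ovariectomized livers most members, Mup20 among them, had higher mean levels with dexamethasone, with groups that overlapped. In intact livers Mup20 was at 9.90, 10.02 and 9.71 with dexamethasone, against 9.13, 9.15 and 9.18 with vehicle, a difference of 0.72 ± 0.16 with no overlap. In ovariectomized livers it was at 9.96, 10.29 and 10.51 with dexamethasone, against 9.61, 10.13 and 9.496 with vehicle, a difference of 0.51 ± 0.16 with overlap. No other member passed in intact livers, so 1 of 10 did, beside 22.8% of all genes as higher and 48.8% in either direction. It was also the 1 member with no overlap there, beside 26.9% of all genes that lay higher without overlap. The other 9 differences in intact livers ran from -0.49 ± 0.49 for Mup1 to 0.47 ± 0.47 for Mup8, and Mup2 differed by 0.13 ± 0.37. Whether Mup20 differs from the other members in its response was not tested.

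In ovariectomized livers the 10 differences between dexamethasone and vehicle were all above 0, with a median of 0.92, where the median of all genes was 0.00. The group values overlapped for each of the 10, where 28.1% of all genes lay higher without overlap. Mup9 averaged 8.48 ± 0.69 with dexamethasone and 7.17 ± 0.69 with vehicle, a difference of 1.31 ± 0.44. Mup19 differed by 1.31 ± 0.46, Mup12 by 1.02 ± 0.46, Mup8 by 0.99 ± 0.47, Mup1 by 0.92 ± 0.49, Mup13 by 0.91 ± 0.39, Mup15 by 0.91 ± 0.42 and Mup2 by 0.89 ± 0.37. Mup3 differed by 0.05 ± 0.31. Mup9, Mup19 and Mup20 passed, 3 of 10, beside 21.3% of all genes as higher and 40.7% in either direction. That count rests on single libraries: it was 9 of 10 without replicate 2 of the ovariectomized vehicle livers and 0 of 10 without replicate 2 of the ovariectomized dexamethasone livers. Mup9, Mup19 and Mup20 each passed in 2 of the 6 fits that left out a library.

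The response to dexamethasone in ovariectomized livers minus that in intact livers was above 0 for 9 of 10 members, and for 0 of 10 did it pass in limma, where 24.9% of all genes passed and 15.3% did so as a higher response in ovariectomized livers. At an unadjusted p under 0.05 there was 1 member, Mup9. Its response was 1.31 in ovariectomized livers and -0.47 in intact livers, a difference of responses of 1.78 ± 0.62. Mup1 followed at 1.42 ± 0.70 and Mup19 at 1.15 ± 0.65. For Mup2 it was 0.76 ± 0.52, for Mup3 0.15 ± 0.44 and for Mup20 -0.21 ± 0.23. The comparisons share libraries, so their values for a gene are not independent.

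**Figure D3:**
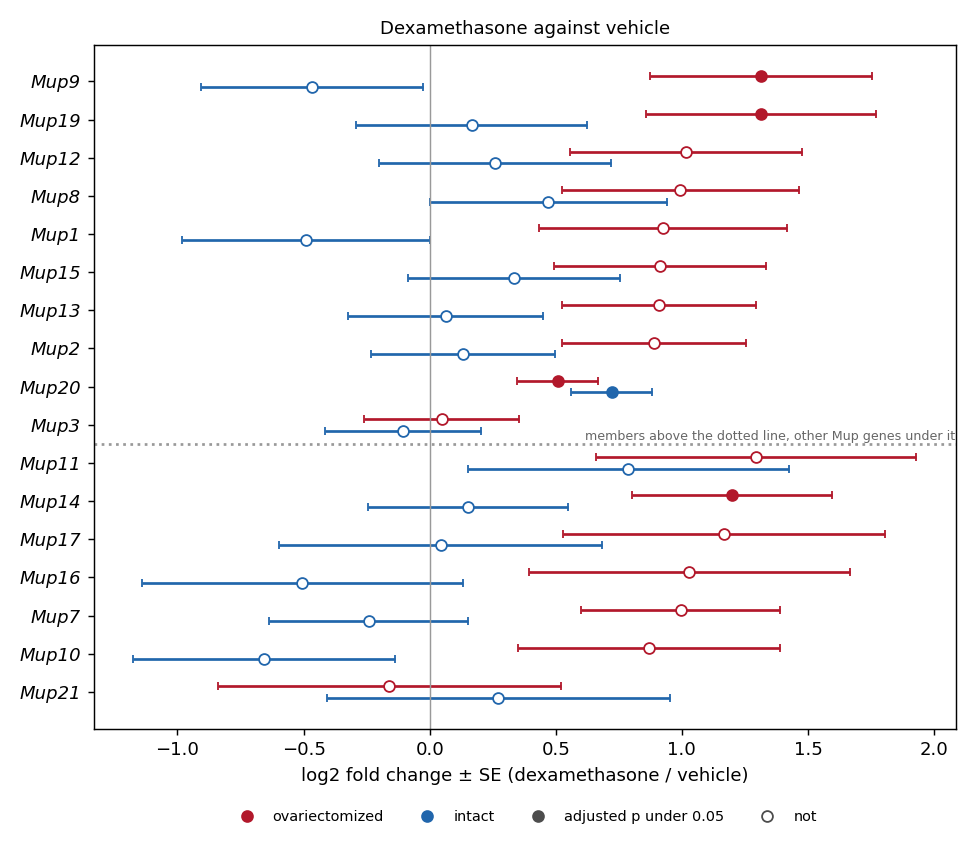
Log2 fold change ± SE (x axis, dexamethasone over vehicle) of the 10 members, above the dotted line, and of 7 other Mup genes under it, in ovariectomized (red) and intact (blue) livers, n = 3 per group. Filled points passed an adjusted p under 0.05 in limma over 12965 genes. Mup20 is filled in both, at 0.51 and 0.72, and Mup9 is at 1.31 and -0.47.

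On the deposited values Mup3, the highest member, set the total of the 10 members. This is not the total of the family: Mup10, outside the 10, averaged 14.09 over the 12 libraries, beside 15.21 for Mup3. The members' deposited values were put back on a linear scale, summed in each library and written as log2. The sum was 15.35, 15.82 and 15.97 in ovariectomized dexamethasone livers, 15.46, 15.97 and 15.19 in ovariectomized vehicle livers, 15.06, 15.78 and 14.32 in intact dexamethasone livers, and 15.35, 14.90 and 15.16 in intact vehicle livers. These ranges overlap in every pairing of groups. Mup3 made up 86.6%, 81.4% and 78.0% of the sum in ovariectomized dexamethasone livers and 89.3%, 86.8% and 91.8% in ovariectomized vehicle livers. In intact livers it made up 94.0%, 95.5% and 92.6% with dexamethasone and 95.7%, 95.0% and 95.8% with vehicle. Its share was thus lower in every ovariectomized library than in every intact one. These shares take the deposited values as plain log2. Mup3 shared the least sequence of the members, 15.6% of its 50-base words. How far its share depends on the counting of reads that match several copies was not tested.

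Without Mup3 the sum was 12.45, 13.39 and 13.79 in ovariectomized dexamethasone livers and 12.23, 13.05 and 11.58 in ovariectomized vehicle livers. In intact livers it was 11.001, 11.302 and 10.57 with dexamethasone and 10.803, 10.59 and 10.57 with vehicle. The difference between ovariectomized and intact livers in the sum was 0.66 with dexamethasone and 0.40 with vehicle over all 10 members, and 2.25 with dexamethasone and 1.63 with vehicle without Mup3. Single libraries moved these sums of 10: 0.66 became 0.29 without replicate 3 and 1.02 without replicate 2 of the intact dexamethasone livers, and 0.40 became 0.19 without replicate 2 of the ovariectomized vehicle livers. Dexamethasone minus vehicle in the sum of 10 was 0.17 in ovariectomized and -0.08 in intact livers. Quantile normalization gave 0.12 for intact livers, and leaving out a library gave -0.45 to 0.28 there and -0.01 to 0.39 in ovariectomized livers, so neither sign is stable.

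Each member was also set against Mup3 in the same library. Mup2 minus Mup3 was -5.16, -4.62 and -4.29 in ovariectomized dexamethasone livers, against -7.70, -8.17 and -7.37 in intact dexamethasone livers. With vehicle it was -5.39, -5.23 and -5.98 in ovariectomized livers, against -8.02, -7.77 and -8.17 in intact livers. Of the other 9 members, 8 lay higher against Mup3 in every ovariectomized than in every intact library with dexamethasone, and 7 with vehicle. With vehicle these were not the 7 that lay apart in level: Mup1 now lay apart, at a difference of 0.71, and Mup20 overlapped, at 0.28. Over all 12964 other genes, 0.0849% lay higher against Mup3 in that way with dexamethasone and 0.478% with vehicle. The 0.0849% were 11 genes, the 8 members among them. Within groups the 9 members moved with Mup3, at a Pearson r of 0.723 to 0.912. Subtracting Mup3 takes out the spread they share with it, and adds its spread to a gene that does not move with it. These shares and the members' counts are therefore not on equal terms, and nothing is read from setting them together.

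On this scale some members also separated by treatment. Mup9 minus Mup3 was -7.40, -6.90 and -6.53 in ovariectomized dexamethasone livers, against -8.25, -7.86 and -8.52 in ovariectomized vehicle livers. Mup2, Mup13, Mup19, Mup9 and Mup20 lay higher with dexamethasone in all 3 ovariectomized libraries, 5 of 9, beside 4.88% of all genes. In intact livers Mup8 and Mup12 lay higher and Mup1 lower, where 1.02% of all genes lay higher and 1.72% lower. This scale takes up any change in Mup3 itself and shows unequal change only. The shares of all genes are again not on equal terms with the members' counts, and nothing is read from them.

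**Figure D4:**
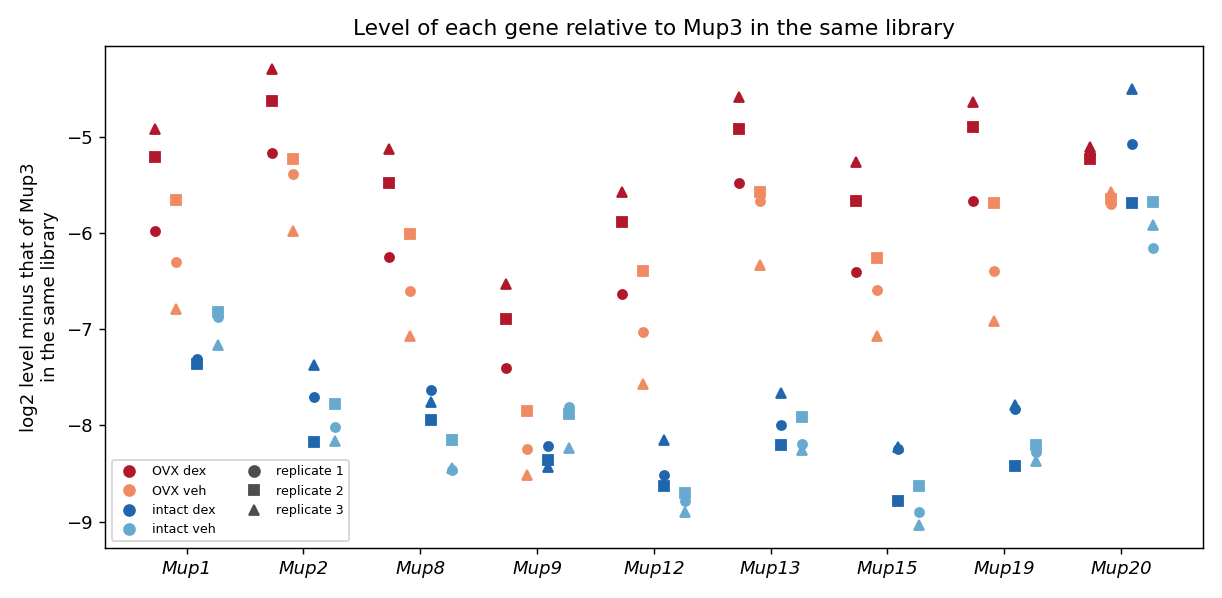
Log2 level of 9 Mup genes minus that of Mup3 in the same library (y axis), with genes along the x axis, colours for the 4 groups and symbols for replicates. Mup2 lies between -5.98 and -4.29 in the 6 ovariectomized (OVX) libraries and between -8.17 and -7.37 in the 6 intact ones.

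Within a group, most members moved up and down together from library to library. In ovariectomized dexamethasone livers replicate 1 was the lowest and replicate 3 the highest for 10 of 10 members. In ovariectomized vehicle livers replicate 3 was the lowest and replicate 2 the highest for 10 of 10, and the same held in intact dexamethasone livers. In intact vehicle livers replicate 1 was the highest for 9 of 10. Over the 45 pairs of members, the Pearson correlation of deviations from the group means across the 12 libraries had a median of 0.962, from 0.723 for Mup20 with Mup3 to 0.991 for Mup13 with Mup2. In intact vehicle livers Mup20 was the exception, lowest in replicate 1 and highest in replicate 3. Near-identical members may share reads, so these values are descriptions. The summed level of every marker list of liver cell types ran against the members' mean within groups over the same 12 libraries, at a Pearson r of -0.86 for cholangiocytes, -0.72 for hepatocytes, -0.71 for blood, -0.64 for sinusoidal endothelium, and -0.57 for Kupffer cells and for stellate cells. Their part in the co-movement was not tested. The sums are on a linear scale, so Spp1 carries most of the cholangiocyte sum and Alb most of the hepatocyte sum. The widest spread of any member within a group was that of Mup19 in ovariectomized vehicle livers, from 8.15 to 10.08.

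**Figure D5:**
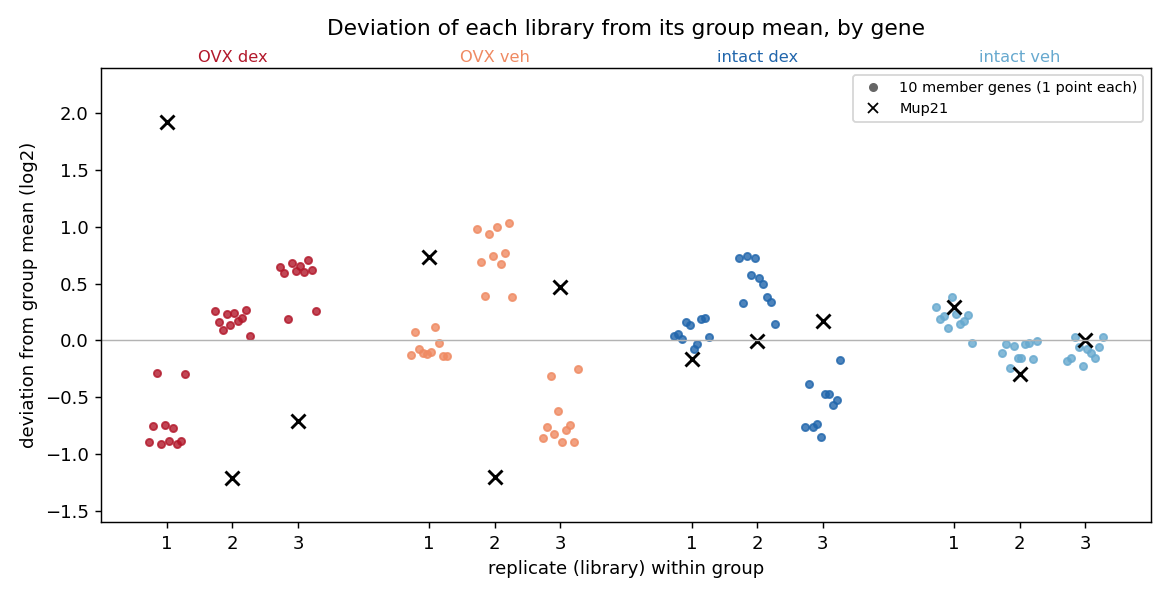
Deviation of each library from its group mean in log2 units (y axis) by replicate in the 4 groups (x axis; OVX, ovariectomized; dex, dexamethasone; veh, vehicle). Dots are the 10 members and crosses are Mup21. In ovariectomized dexamethasone livers all 10 members lie under 0 in replicate 1, where Mup21 lies above it.

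Mup21 is a diverged gene at the end of the cluster and shares 19.3% of its 50-base words with other genes. Its libraries varied in another order than the members'. It was at 9.97, 6.84 and 7.34 in ovariectomized dexamethasone livers, 8.94, 7.003 and 8.68 in ovariectomized vehicle livers, 6.65, 6.81 and 6.98 in intact dexamethasone livers, and 6.83, 6.25 and 6.54 in intact vehicle livers. It was highest in replicate 1 of the ovariectomized dexamethasone livers, where the members were lowest for that group, and lowest for its group in replicate 2 of the ovariectomized vehicle livers, where they were highest. Its within-group correlation with the 10 members ran from -0.806 to -0.404. The 3 ovariectomized vehicle libraries lay above the intact vehicle ones (1.67 ± 0.68), and this did not pass.

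The other Mup genes showed no call by ovariectomy. Of 10 symbols outside the members, 7 reached the mean level of 4 needed for the fit, Mup4 and Mup6 lay under 0 in every library and Mup5 was listed at 0 in every library. Mup10 was at 14.02, 14.94 and 15.22 in ovariectomized dexamethasone livers and 14.05, 14.46 and 13.06 in ovariectomized vehicle livers. In intact livers it was at 13.78, 14.60 and 12.33 with dexamethasone and 14.65, 14.10 and 13.93 with vehicle, so the groups overlapped throughout. Ovariectomized minus intact was -0.37 ± 0.52 with vehicle for Mup10, 0.56 ± 0.64 for Mup17, 0.77 ± 0.64 for Mup11, 0.02 ± 0.40 for Mup14, -0.12 ± 0.64 for Mup16 and -0.35 ± 0.39 for Mup7. With dexamethasone the same differences were 1.16 ± 0.52 for Mup10, 1.68 ± 0.64 for Mup17, 1.28 ± 0.64 for Mup11, 1.07 ± 0.40 for Mup14, 1.42 ± 0.64 for Mup16 and 0.89 ± 0.39 for Mup7. Counting Mup21, 5 of the 7 had an unadjusted limma p under 0.05 with dexamethasone, and 1 with vehicle. Their median difference was 1.23 with dexamethasone, where that of all genes was 0.02. With vehicle it was 0.02, where that of all genes was -0.01. Mup14 rose with dexamethasone in ovariectomized livers, by 1.20 ± 0.40, and was the 1 call among these 7 genes in any comparison. It passed in 2 of the 6 fits that left out a library. Whether members and the other Mup genes differ was not tested.

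The 5 genes outside the family whose level most resembled the members' mean over the 12 libraries were Cyp2c38, a cytochrome P450, at a Pearson r of 0.942, Ech1, a peroxisomal enzyme of fatty acid breakdown, at 0.941, Sbds, a ribosome maturation factor, at 0.925, Psmb7, a proteasome subunit, at 0.925, and the unnamed locus Gm12060 at 0.922. These points share libraries and groups, and were picked as the highest of all genes tested, so no test goes with them.

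The growth hormone pathway, which is known to govern Mup transcription, and a list of hormone receptors were counted over the same comparisons. In these, 27.9% of all genes passed with vehicle and 12.8% with dexamethasone. Of 15 genes of the growth hormone and STAT5 pathway, 1 was higher and 1 lower in ovariectomized than in intact livers with vehicle (Socs3, a feedback inhibitor of cytokine signalling, by 0.70 ± 0.11, limma adjusted p = 0.00117, and Jak2, the kinase on the growth hormone receptor, by -0.31 ± 0.07, adjusted p = 0.0107). With dexamethasone 1 was higher, Onecut1, and 0 lower. Onecut1 also stands in the list of liver transcription factors below, so this call is counted in both lists. Ghr, the growth hormone receptor, differed by 0.13 ± 0.08 with dexamethasone and -0.21 ± 0.08 with vehicle, Stat5b by 0.07 ± 0.10 and 0.01 ± 0.10, and Igf1, a main target of growth hormone, by 0.02 ± 0.10 and -0.13 ± 0.10, none of which passed. The list medians were 0.01 with dexamethasone and -0.02 with vehicle, where the medians of all genes were 0.02 and -0.01.

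Of 7 hormone receptors tested, 4 were lower in ovariectomized than in intact livers with vehicle. Esr1, the main oestrogen receptor of liver, fell by 1.39 ± 0.35 (limma adjusted p = 0.0132) and Nr3c1, the glucocorticoid receptor, by 0.43 ± 0.05 (adjusted p = 0.000464). Thrb, a thyroid hormone receptor, and Insr, the insulin receptor, made up the 4, and passed in 3 and 2 of the 6 fits that left out a library. With dexamethasone 0 of 7 passed in limma, and 0 did so at an unadjusted p under 0.05. Against vehicle, 6 of 7 fell with dexamethasone in intact livers. Ghr by 0.77 ± 0.08 (limma adjusted p = 3.02e-05) and Nr3c1 by 0.57 ± 0.05 (adjusted p = 1.44e-05) were among them. In that comparison 48.8% of all genes passed, 3364 of 12965 as lower. In ovariectomized livers 2 of 7 fell, Ghr and Prlr, where 40.7% of all genes passed, 2518 of 12965 as lower.

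Among 12 liver transcription factors, 0 passed between ovariectomized and intact livers with vehicle (2 at an unadjusted p under 0.05) and 2 were higher with dexamethasone. Over all genes, 27.9% passed with vehicle and 12.8% with dexamethasone. Onecut1, which binds ATCAAT, was higher by 1.26 ± 0.33 (limma adjusted p = 0.033) and Hnf4a, a factor that maintains hepatocyte genes, by 0.59 ± 0.09 (adjusted p = 0.00502). Both also rose with dexamethasone in ovariectomized livers, Onecut1 by 1.42 ± 0.33 and Hnf4a by 0.81 ± 0.09. Onecut1 passed the comparison of ovariectomized with intact dexamethasone livers in 2 of the 6 fits that left out a library. Zhx2 is a regulator of Mup genes in mice. It differed between ovariectomized and intact livers by 0.12 ± 0.08 with dexamethasone and -0.19 ± 0.08 with vehicle, and did not pass. Whether these genes bear on the Mup levels was not tested.

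Male-biased expression is a known property of the family, and other genes with a sex bias in mouse liver were counted beside it, again against 27.9% of all genes passing with vehicle and 12.8% with dexamethasone. Of 13 male-biased genes tested, 0 were higher and 1 lower in ovariectomized than in intact livers with dexamethasone, Selenbp2 (-1.48 ± 0.38, limma adjusted p = 0.0305, lost in 4 of the 6 fits that left out a library), and 1 was higher and 1 lower with vehicle. Of 16 female-biased genes, 1 was higher with dexamethasone and 1 lower with vehicle. The median differences were -0.03 with dexamethasone and -0.21 with vehicle for the male-biased genes, and -0.30 with dexamethasone and -0.28 with vehicle for the female-biased ones. Of 9 other lipocalins tested, 2 were higher and 0 lower with dexamethasone (Lcn2 and Rbp4, each of which passed in 1 of the 6 fits that left out a library) and 2 were higher and 2 lower with vehicle. Of 15 plasma proteins secreted by the liver, 0 passed with dexamethasone, 1 at an unadjusted p under 0.05, and 3 were higher and 3 lower with vehicle.

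The dexamethasone label was checked on known targets, and no marker of ovariectomy was tested. Fkbp5, a glucocorticoid target, rose with dexamethasone by 2.29 ± 0.22 in ovariectomized and 1.28 ± 0.22 in intact livers, and Tsc22d3, another, by 1.13 ± 0.15 and 0.59 ± 0.15, with limma adjusted p from 2.2e-05 to 0.00664. The median level of a library was 8.82 to 8.86. All 6 hepatocyte markers were present, with a summed level of 21.91 to 22.27 over the 12 libraries. Of 6 Kupffer cell markers 5 were in the table, and their summed level was 12.62 to 12.96 in ovariectomized dexamethasone livers, 12.85 to 13.07 in ovariectomized vehicle livers, 13.09 to 13.24 in intact dexamethasone livers and 13.31 to 13.40 in intact vehicle livers. It was thus lower in the ovariectomized groups, where most Mup members were higher, and its part in that result was not tested. In whole liver, fewer cells of a type and less RNA per cell cannot be told apart. Other marker lists also lay apart in a comparison where most members were higher. The 6 stellate cell markers summed to 12.91 to 13.14 in ovariectomized dexamethasone livers, against 13.47 to 13.69 in intact dexamethasone livers. They overlapped with vehicle, at 12.73 to 13.25 in ovariectomized and 12.87 to 13.27 in intact livers. The 5 cholangiocyte markers summed to 11.30 to 11.57 in ovariectomized vehicle livers, against 10.94 to 11.02 in intact vehicle livers. They overlapped with dexamethasone, at 10.82 to 11.08 in ovariectomized and 11.01 to 11.22 in intact livers. Most of that sum was Spp1, at a mean of 10.96, where Krt7, Krt19, Epcam and Sox9 averaged 5.17, 5.55, 6.09 and 6.42. With vehicle Spp1 and Epcam lay higher in every ovariectomized library, and Krt7, Krt19 and Sox9 overlapped. The 6 hepatocyte markers summed to 22.07 to 22.27 in ovariectomized dexamethasone livers, against 21.91 to 22.03 in intact dexamethasone livers, and overlapped with vehicle. Most of the hepatocyte sum was Alb, at a mean of 21.79, where Apoa1 came next at 18.25. The 6 sinusoidal endothelial markers, at 12.18 to 12.90, and the 6 blood genes, 2 of them listed at 0, at 8.40 to 9.07, overlapped between ovariectomized and intact livers under each treatment. The part of any of these in the Mup values was not tested.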

How the data were processed

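Liver RNA (TRIzol, RNeasy) was made into TruSeq libraries and read on an Illumina NextSeq, per the labels' protocols. The submitters' processing notes name TopHat2, Trim Galore, HTSeq, DESeq and DESeq2 and build mm9. The authors deposited 1 table of log2 normalized values per gene, which hold no read depth, so no counting interval is given. The sources used here do not give the exact transformation, the annotation or the read length. Shrinkage of low values was not tested.

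Of several entries for a symbol the one with the highest mean was used (unused entries of members reached 3.19). Genes that averaged 4 or more over the 12 libraries, 12965 in all, were fitted in limma 3.58.1 (R 4.3.3; lmFit, eBayes with trend, 4 groups, 8 residual degrees of freedom). P-values were adjusted by Benjamini-Hochberg over all of them, and the fit was tested on simulated data. Shared words came from GRCm38 transcripts matched by symbol, and start regions were aligned with Biopython 1.88.

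The members and all gene lists were chosen with earlier results of these data known. Named are all Mup genes, up to 4 genes that passed per list and comparison, Ghr, Stat5b, Igf1, Zhx2, Nr3c1, Fkbp5 and Tsc22d3 whatever their value, and the 5 genes most like the members' mean. The rule takes more genes than are printed, and the rest are in the counts, except a few genes that are not reported here. Alternatives tried were dropping the filter, a stricter filter (6), a pseudocount of 8, recentring, quantile normalization, no variance trend, fits on the compared libraries alone, a block for the replicate number, every Mup gene or a mean of log2 values for the sum, and leaving out each library.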

Additional observations from a re-analysis of the deposited data

Results flagged for a closer look

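No Mup gene met a criterion for a closer look: groups of 3 libraries were not searched for outliers, and no Mup gene passed the test of the difference between dexamethasone responses. Among the regulators and receptors listed beside the Mup genes, 8 did pass it (limma, adjusted p over 12965 genes, n = 3 per group). Of all genes, 24.9% passed it. The values are the response in ovariectomized livers minus that in intact livers, on the log2 scale. Esr1 differed by 1.66 ± 0.49 (adjusted p = 0.0301), Onecut1 by 1.64 ± 0.47 (adjusted p = 0.0255), Hnf4a by 0.84 ± 0.12 (adjusted p = 0.00125) and Nr3c1 by 0.54 ± 0.08 (adjusted p = 0.00101). Thrb differed by 0.40 ± 0.11 (adjusted p = 0.0183), Ghr by 0.34 ± 0.12 (adjusted p = 0.0497) and Insr by 0.31 ± 0.08 (adjusted p = 0.0167). Socs3 differed by -0.97 ± 0.15 (adjusted p = 0.00146). With each of the 12 libraries left out in turn, Ghr passed in 2 of 12 fits, Esr1 in 4 and Onecut1 in 6, and the other 5 genes passed in 12 of 12. Under quantile normalization Ghr, Insr and Thrb did not pass.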

How the results depend on the processing

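Of 221 values of counts and summed levels recomputed under the alternatives, 196 stayed within 1.5 times (counts) or 1 SD between replicates (summed levels) of the value reported and 25 did not. That SD is wide beside the summed levels: 8 of their 71 alternative values had the other sign. Genes passing for ovariectomized against intact livers given dexamethasone numbered 1662, 601 with only the libraries compared, 768 with quantile normalization and 207 to 1286 with a library left out, and recentring to the same median gave a split of 728 higher and 782 lower in place of 1004 higher and 658 lower. With vehicle they numbered 3618, and 2215 (without replicate 1 of the intact vehicle livers) to 3749 with a library left out. Members passing for dexamethasone against vehicle in ovariectomized livers numbered 3, 1 with only the libraries compared and 0 to 9 with a library left out. For the difference of responses they numbered 0, and 0 to 3 with a library left out, and for ovariectomized against intact livers given dexamethasone 8, and 5 to 8. The summed level is the value most open to choice, since the mean of log2 values weights all members alike: it gave 2.41 in place of 0.66 for ovariectomized against intact livers given dexamethasone, 1.63 in place of 0.40 with vehicle, 0.88 in place of 0.17 for dexamethasone against vehicle in ovariectomized livers and 0.77 in place of 0.26 for the difference of responses. Without Mup3, an alternative chosen after seeing the data, these were 2.25, 1.63 and 0.92 for the first 3. With a library left out the summed level ran from 0.29 to 1.02 for ovariectomized against intact livers given dexamethasone, 0.19 to 0.58 with vehicle, -0.01 to 0.39 for dexamethasone in ovariectomized livers, -0.45 to 0.28 in intact livers and -0.11 to 0.62 for the difference of responses. Summing every Mup gene gave 0.84, 0.19, 0.40, -0.25 and 0.65 in that order. No clear pairing by replicate number was seen: deviations of same-numbered libraries had correlations of -0.231 to 0.396, with 6 of 18 over 0.1. Deviations within groups of 3 cannot exclude a pairing. With the replicate number as a block, 8 members passed for ovariectomized against intact livers given dexamethasone and 7 with vehicle, as without it. Mup genes kept their side of the threshold in 643 values with all libraries, while 5 came to pass and 5 no longer passed. With a library left out these were 564, 23 and 25. Values of single genes that passed in neither the reported nor the alternative fit differed in sign 75 times. Rbp4, a lipocalin, differed by -0.34 for dexamethasone in ovariectomized livers under quantile normalization, where it passed, in place of 0.13. The difference of responses needs all groups, so it has no value for only the libraries compared. The causes of these shifts were not tested, beyond the weight of Mup3 in the sum. The shrinkage of low values and the sharing of reads among copies limit these data.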
